A study of Mus musculus with 8 samples.

Results

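The transcripts described here came from 44 mouse genes for RNA polymerase I and for ribosome biogenesis, the assembly line of the nucleolus. They were picked by gene symbol and role out of a count table of 50600 rows, with no threshold on their values but with earlier results of these data known, and every symbol had a row. Of the 44 genes, 43 reached 10 counts in 2 or more of the 8 libraries and were tested. *Wdr74*, a large subunit assembly factor, did not, with at most 4 counts in any library, and is not counted further.

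Ribosomal RNA is transcribed by RNA polymerase I in the nucleolus, where it is modified by small nucleolar ribonucleoproteins (snoRNPs), cut, folded and joined with ribosomal proteins into the small and the large subunit. This work takes up a large share of the transcription of a growing cell. Many of its genes are textbook targets of the transcription factor MYC, and p53 becomes stabilized when ribosome assembly is disturbed, because free ribosomal proteins of the 5S particle then bind MDM2.

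RNA was sequenced from NF1-MET, a line from a malignant peripheral nerve sheath tumor (MPNST) of a mouse model of neurofibromatosis, and from NF1-MET;sgP53, derived from NF1-MET by a *Trp53* guide in the lentiCRISPRv2 vector. NF1-MET carries the *Nf1* genotype fl/ko, a *lox-stop-loxMET* transgene as tg/+ and *Plp-creERT* as tg/+, in which the *Plp* promoter drives an inducible Cre recombinase, and its tumor had amplified *Met*. Per the study's methods and text, NF1-MET had also lost *Cdkn2a* by a spontaneous deletion. NF1-MET;sgP53 shares this background and was selected with puromycin. Both lines grew in serum and received vehicle (DMSO) or 100 nM capmatinib, an inhibitor of the MET kinase, for 24 h, with 2 libraries labelled as biological replicates in each of the 4 groups. Each genotype was 1 line, so p53 loss cannot be told apart from other differences between the lines. The columns of the NF1-MET libraries carry a name that could stand for an empty-vector control, which the sample labels do not state.

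Library totals lay between 30.1 and 42.8 M counts. The median squared difference between replicates was 1.55 to 1.77 times that of sampling noise. A transcript that shares its locus with ribosomal RNA, *Gm42418*, took 5.29% and 10.1% of the vehicle libraries of NF1-MET and 11.5% and 13.1% after capmatinib, and 3.16% and 7.89% of the vehicle libraries of NF1-MET;sgP53 and 1.11% and 10.02% after capmatinib. Markers of immune, epithelial and endothelial cells stayed at or below 1.93 CPM (counts per M counts of a library, scaled with edgeR's TMM factors). Of 11 markers of Schwann cells and neural crest, the lineage of this tumor, 9 were below 1 CPM in every library, among them *Sox10*, and *Gap43* lay between 18.1 and 21.7 CPM in vehicle and between 2.79 and 3.83 CPM in capmatinib. The targeted gene, *Trp53*, had 182 and 193 CPM in vehicle-treated NF1-MET cells, 126 and 128 CPM after capmatinib, 97.5 and 100.1 CPM in vehicle-treated NF1-MET;sgP53 cells, and 68.0 and 68.8 CPM after capmatinib. Its transcript was lower in NF1-MET;sgP53 under both treatments.

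MYC binds DNA as a dimer with MAX at the E-box CACGTG, and the start regions of the 44 genes were searched for these letters in RefSeq promoters (GRCm38.p6, from 250 bases before to 50 bases after a gene's start). Promoters of 39 of the 44 genes were in that table, and 9 of the 39 (23.1%) held CACGTG, against 8.09% of 27025 genes and 7.15% of 32851 promoters overall. The related letters CACGCG, searched on both strands, were present in 15 of the 39 (38.5%), against 10.5% of genes and 9.27% of promoters. CACGTG reads the same on both strands, and the 2 words do not contain each other. The stretches of 30 bases around the E-boxes of these 9 genes are given as a description. They read 5′ to 3′ along the gene, with the E-box in capitals.
*Nop2*, chr6:125131811-125131840, plus strand: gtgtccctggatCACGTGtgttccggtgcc
*Utp4*, chr8:106893643-106893672, plus strand: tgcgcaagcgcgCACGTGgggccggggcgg
*Ltv1*, chr10:13193092-13193121, minus strand: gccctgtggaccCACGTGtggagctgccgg
*Utp20*, chr10:88826765-88826794, minus strand: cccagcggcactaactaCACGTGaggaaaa
*Pes1*, chr11:3963965-3963994, plus strand: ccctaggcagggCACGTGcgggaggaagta
*Mybbp1a*, chr11:72441347-72441376, plus strand: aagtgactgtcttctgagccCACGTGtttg
*Tsr1*, chr11:74898092-74898121, plus strand: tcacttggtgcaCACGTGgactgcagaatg
*Rrn3*, chr16:13780472-13780501, plus strand: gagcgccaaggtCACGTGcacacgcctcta
*Rrn3*, chr16:13780639-13780668, plus strand: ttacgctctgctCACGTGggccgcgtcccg
*Wdr43*, chr17:71616220-71616249, plus strand: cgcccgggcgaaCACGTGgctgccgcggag
The E-box began after the start in 7 of the 9 genes, from 2 bases downstream in *Pes1* to 40 bases downstream in *Mybbp1a*, and before it in *Nop2* and *Rrn3*, which held a pair of them. These matches describe letters and not bound sites.

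The first question was what inhibition of MET did to these transcripts. Capmatinib lowered all 43 tested genes in NF1-MET, all 43 in NF1-MET;sgP53, and all 43 over both lines, and raised none (edgeR's quasi-likelihood test, adjusted by the Benjamini-Hochberg procedure over all genes tested, threshold 0.05). Of all genes tested, 34.7% were lower and 35.5% higher in NF1-MET, 33.4% lower and 34.2% higher in NF1-MET;sgP53, and 35.8% lower and 38.0% higher over both lines. The median log2 fold change of the 43 genes was -0.78 for the NF1-MET line, -0.82 for NF1-MET;sgP53 and -0.81 over both, where that of all genes was 0.00, 0.00 and 0.01. In each of the 43, the 4 capmatinib libraries lay below the 4 vehicle libraries, as they did for 31.6% of all genes. Over both lines 36 of the 43 were called lower with a log2 fold change of -0.5 or below, against 15.8% of all genes. The level left with capmatinib ranged from 41.4% of vehicle (*Dkc1* in NF1-MET;sgP53) to 83.7% (*Ubtf* in NF1-MET). Of the transcripts of the ribosomal RNA locus and small RNAs, 4 were tested. Their median was 0.70 with 3 called higher in NF1-MET, 0.08 with 0 called in NF1-MET;sgP53, and 0.40 with 0 called over both lines. With *Gm42418* and *AY036118* left out, the 43 genes were still all called lower in each line, with medians of -0.78 and -0.83. In these bulk samples fewer cells of a kind and less RNA per cell cannot be told apart.

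The summed level of the 43 genes and *Wdr74* was 6903 and 6875 CPM in vehicle-treated NF1-MET cells and 4080 and 4056 CPM after capmatinib. The NF1-MET;sgP53 sums were 7086 and 7034 CPM with vehicle and 4104 and 4079 CPM after capmatinib. The treated libraries of both lines shared 1 narrow range, while the vehicle libraries of NF1-MET;sgP53 stood above those of NF1-MET. *Ncl* and *Npm1* made up 38.4% of the sum.

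**Figure D1:**
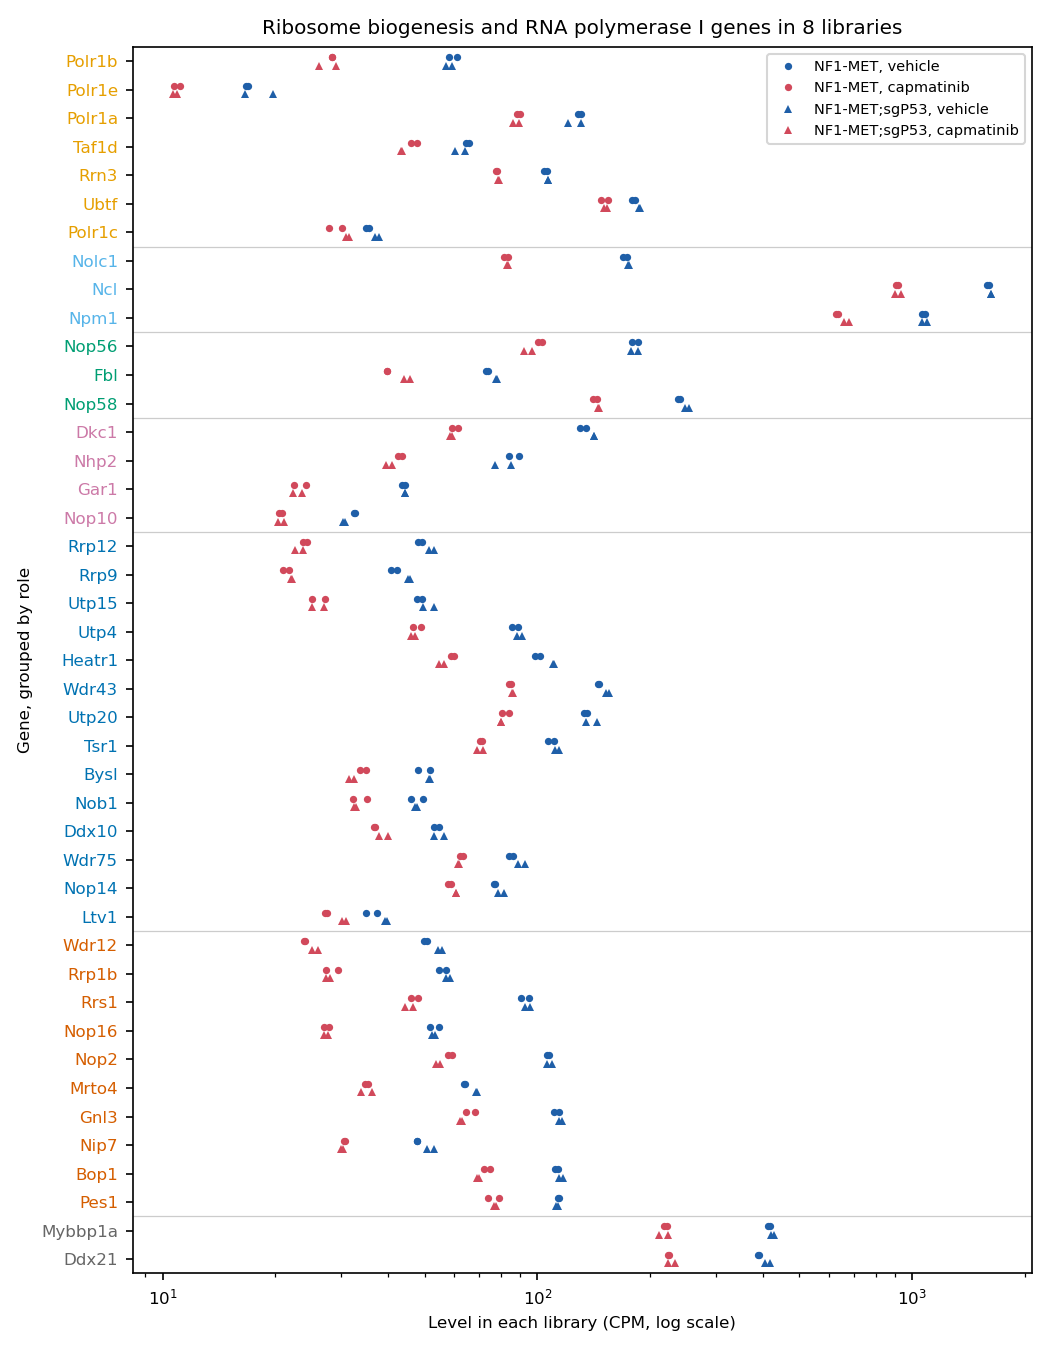
Level of the 43 tested genes in each of the 8 libraries, in CPM on a log scale, with genes grouped by role and ordered by log2 fold change within a role. Circles are NF1-MET, triangles NF1-MET;sgP53, blue vehicle and red capmatinib. In every gene the 4 red symbols lie to the left of the 4 blue ones, and the gap is narrow in *Polr1c* and *Ubtf* and wide in *Dkc1*.

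RNA polymerase I and its factors fell least, with a median log2 fold change of -0.49 over both lines in 7 genes, and the genes of this group were far apart. *Polr1b*, a core subunit of the enzyme (mm10 chromosome 2, 129100995 to 129126594), had 58.2 and 61.0 CPM in vehicle-treated NF1-MET cells and 28.3 and 28.4 CPM after capmatinib, and in NF1-MET;sgP53 57.1 and 59.3 CPM in vehicle and 26.1 and 29.1 CPM after capmatinib. All treated libraries were at about the same low level and no group overlapped with its control. Its log2 fold change over both lines was -1.07 (SE 0.0376, adjusted p = 1.45e-11 in edgeR's quasi-likelihood test). *Ubtf*, the factor that holds ribosomal DNA open for transcription (chromosome 11, 102304560 to 102319742), had 182 and 179 CPM in vehicle-treated NF1-MET cells, 147 and 154 CPM after capmatinib, 186 and 188 CPM in vehicle-treated NF1-MET;sgP53 cells, and 151 and 153 CPM after capmatinib. It was lower in every treated library, but by much less, with a log2 fold change of -0.28 (SE 0.0255, adjusted p = 2.96e-07 from the same edgeR test). The smallest fall of the 43 was that of *Polr1c*, a subunit shared with RNA polymerase III, at -0.27. Between these ends stood the subunits *Polr1e* (-0.68) and *Polr1a* (-0.53), *Taf1d* (-0.49), a part of the promoter selectivity factor, and *Rrn3* (-0.44), which makes the polymerase competent to start.

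Scaffold proteins and chaperones of the nucleolus had a median of -0.81 in 3 genes. *Ncl* (nucleolin, chromosome 1, 86344719 to 86359400) had 1597 and 1581 CPM in vehicle-treated NF1-MET cells, 917 and 906 CPM after capmatinib, 1617 and 1622 CPM in vehicle-treated NF1-MET;sgP53 cells, and 934 and 898 CPM after capmatinib. The treated libraries of both lines shared 1 range, and its log2 fold change was -0.81 (SE 0.0218, adjusted p = 1.18e-12 in edgeR's quasi-likelihood test). *Nolc1*, a chaperone of snoRNPs (chromosome 19, 46075863 to 46085530), had 169 and 174 CPM in vehicle-treated NF1-MET cells, 83.6 and 81.3 CPM after capmatinib, 175 and 174 CPM in vehicle-treated NF1-MET;sgP53 cells, and 82.7 and 83.4 CPM after capmatinib. Its level was close to equal in both lines at each treatment and fell to 48.1% of vehicle for NF1-MET and 47.5% for NF1-MET;sgP53, a log2 fold change of -1.07 (SE 0.0245, adjusted p = 3.05e-13 from the same edgeR test). *Npm1* (nucleophosmin) fell by 0.73 on the log2 scale.

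The box C/D snoRNP places ribose methyl groups on ribosomal RNA. Its 3 genes had a median of -0.84. *Nop58*, a core protein of the particle (chromosome 1, 59684971 to 59719044), had 237.5 and 240.4 CPM in vehicle-treated NF1-MET cells, 144 and 141 CPM after capmatinib, 253 and 248 CPM in vehicle-treated NF1-MET;sgP53 cells, and 146 and 145 CPM after capmatinib. The groups with capmatinib lay below both controls, with a log2 fold change of -0.76 (SE 0.0238, adjusted p = 4.75e-12 in edgeR's quasi-likelihood test). *Nop56*, its partner (chromosome 2, 130274430 to 130279313), had 185 and 179 CPM in vehicle-treated NF1-MET cells, 101 and 103 CPM after capmatinib, 177 and 186 CPM in vehicle-treated NF1-MET;sgP53 cells, and 91.8 and 96.4 CPM after capmatinib. Here the treated NF1-MET;sgP53 libraries were the lowest, and the log2 fold change over both lines was -0.89 (SE 0.0317, adjusted p = 1.65e-11 from the same edgeR test). *Fbl* (fibrillarin), the methyltransferase itself, had -0.84.

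The box H/ACA snoRNP converts uridine to pseudouridine and fell most, with a median of -0.97 in 4 genes. *Dkc1* (dyskerin, chromosome X, 75095854 to 75109777), the pseudouridine synthase, had both the highest CPM and the largest fall of the group. It was present at 130 and 135 CPM in vehicle-treated NF1-MET cells, 61.4 and 59.3 CPM after capmatinib, 142.0 and 141.9 CPM in vehicle-treated NF1-MET;sgP53 cells, and 59.0 and 58.5 CPM after capmatinib. The vehicle libraries of NF1-MET;sgP53 were the highest, a difference from NF1-MET that did not pass the test (0.08, adjusted p = 0.0579 in edgeR's quasi-likelihood test), and all treated libraries lay close together. With a log2 fold change of -1.20 (SE 0.0322, adjusted p = 1.16e-12 in edgeR's quasi-likelihood test) *Dkc1* had the largest fall of the 43 genes. The other proteins of the particle had -1.01 (*Nhp2*), -0.93 (*Gar1*) and -0.61 (*Nop10*).

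Small subunit assembly factors had a median of -0.70 in 14 genes. *Wdr43*, of the complex that joins transcription to early cleavage (chromosome 17, 71615895 to 71659031), had 146 CPM in both NF1-MET vehicle libraries, 83.7 and 85.2 CPM after capmatinib, 152 and 155 CPM in vehicle-treated NF1-MET;sgP53 cells, and 85.4 and 86.2 CPM after capmatinib. The treated libraries of both lines differed little, and the log2 fold change was -0.81 (SE 0.0248, adjusted p = 3.97e-12 in edgeR's quasi-likelihood test). *Rrp12*, which helps subunit precursors leave the nucleus (chromosome 19, 41862851 to 41896173), had 49.1 and 48.1 CPM in vehicle-treated NF1-MET cells, 24.2 and 23.7 CPM after capmatinib, 51.3 and 52.9 CPM in vehicle-treated NF1-MET;sgP53 cells, and 22.6 and 23.8 CPM after capmatinib. It lost more than any other gene of this group, with a log2 fold change of -1.10 (SE 0.0394, adjusted p = 1.80e-11 from the same edgeR test). Early factors of the large precursor particle spread from *Rrp9* (-0.999), *Utp15* (-0.94), *Utp4* (-0.90), *Heatr1* (-0.87) and *Utp20* (-0.76) to *Wdr75* (-0.50) and *Nop14* (-0.40), and the helicase *Ddx10* had -0.52. The late factors, which act on the small subunit near its completion, had -0.65 (*Tsr1*), -0.61 (*Bysl*), -0.52 (the nuclease *Nob1*) and -0.39 (*Ltv1*).

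Large subunit assembly factors had a median of -0.92 in 10 genes. *Pes1*, of the PeBoW complex (chromosome 11, 3963975 to 3980004), had 114 CPM in both NF1-MET vehicle libraries, 79.2 and 73.8 CPM after capmatinib, 112 and 113 CPM in vehicle-treated NF1-MET;sgP53 cells, and 77.5 and 76.5 CPM after capmatinib. The treated libraries lay below all controls, with a log2 fold change of -0.56 (SE 0.0275, adjusted p = 4.09e-10 in edgeR's quasi-likelihood test). *Wdr12*, which sits in the same complex (chromosome 1, 60069785 to 60098645), had 49.9 and 50.7 CPM in vehicle-treated NF1-MET cells, 24.0 and 23.8 CPM after capmatinib, 54.4 and 55.6 CPM in vehicle-treated NF1-MET;sgP53 cells, and 26.0 and 25.1 CPM after capmatinib. Its level with capmatinib was 47.6% of vehicle for NF1-MET and 46.4% for NF1-MET;sgP53, and the log2 fold change was -1.09 (SE 0.0320, adjusted p = 2.70e-12 from the same edgeR test). The third PeBoW gene, *Bop1*, had -0.68, so transcripts of 1 complex fell by unequal amounts. Of the other genes, *Rrp1b* (-1.02), *Rrs1* (-1.02), which brings the 5S particle into the subunit, *Nop16* (-0.96), the ribosomal RNA methyltransferase *Nop2* (-0.93) and *Mrto4* (-0.92) stood near the top and *Gnl3* (nucleostemin, -0.82) and *Nip7* (-0.72) lower.

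The RNA helicase *Ddx21* (chromosome 10, 62580251 to 62602281), which works with both RNA polymerases I and II, had 390 and 389 CPM in vehicle-treated NF1-MET cells, 225 and 222 CPM after capmatinib, 417 and 406 CPM in vehicle-treated NF1-MET;sgP53 cells, and 222 and 233 CPM after capmatinib. *Mybbp1a*, a nucleolar protein that binds MYB and p53 (chromosome 11, 72441355 to 72451768), had 413 and 418 CPM, 218 and 222 CPM, 427 and 420 CPM, and 211 and 224 CPM in the same groups. No treated library of either gene reached a control, and the log2 fold changes were -0.83 (SE 0.0253, adjusted p = 4.16e-12) and -0.94 (SE 0.0256, adjusted p = 1.35e-12), both in edgeR's quasi-likelihood test.

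Some features of the genes could change what their counts mean. Of the 44, 8 contain 29 snoRNA genes, of which 3 passed the count filter in these poly(A) libraries, and the 8 hosts had a median log2 fold change of -0.81 where the 35 other tested genes had -0.83. Exons of 19 genes overlap exons of another gene, among them *Nop56*, *Nop58*, *Ncl*, *Dkc1*, *Wdr12*, *Wdr43*, *Pes1*, *Mybbp1a* and *Heatr1*, and the longest overlaps are in *Taf1d* (1340 bases) and *Tsr1* (1240 bases). The strand setting of the counting is not given in the sources used here, so reads in these stretches cannot be assigned. The median was -0.81 in the 19 and -0.79 in the 24 others. The 9 genes with an E-box had a median of -0.76 (from -0.94 to -0.39) and the 29 tested genes whose promoters lacked it had -0.82 (from -1.20 to -0.27).

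The second question was whether the response differed between the lines. Across the 43 genes the log2 fold changes of NF1-MET and NF1-MET;sgP53, which come from different libraries, had a Pearson correlation of 0.960, given as a description since genes are not independent replicates and the levels in all libraries share a scaling. The fall was larger in NF1-MET;sgP53 for 30 of the 43 genes by the fits within each line, as it was for 47.4% of the 4310 genes that were lower in both lines. Tested directly, 1 gene differed between the lines and 42 did not pass (edgeR's quasi-likelihood test of the interaction), where 5.86% of all genes had a lower and 3.85% a higher response in NF1-MET;sgP53. The median difference was -0.04, near the -0.03 of all genes, and single differences ran from -0.24 to 0.10 with SE of 0.0295 to 0.114, and their 95% intervals lay between -0.36 (*Polr1e*) and 0.25 (*Nop10*). The 4 transcripts of ribosomal RNA overlap and small RNA had a median difference of -0.63 with 0 called, and without *Gm42418* and *AY036118* the median difference of the 43 genes was -0.0080. At an unadjusted p under 0.05 the count was 11 of 43, where 21.8% of all genes reached it.

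The gene was *Heatr1* (chromosome 13, 12395027 to 12440289), whose product links RNA polymerase I transcription with processing of the small subunit RNA. It had 98.7 and 102 CPM in vehicle-treated NF1-MET cells and 58.8 and 60.0 CPM after capmatinib. Levels in NF1-MET;sgP53 were 111 and 110 CPM with vehicle and 54.8 and 56.4 CPM after capmatinib. *Heatr1* was higher in the p53-deficient line in vehicle. It was lower there in capmatinib (-0.10), a difference that did not pass the test (adjusted p = 0.112 in edgeR's quasi-likelihood test). Its log2 fold change was -0.77 in the parental line and -0.99 in NF1-MET;sgP53, a difference of -0.24 (SE 0.0461, adjusted p = 0.00105 in edgeR's quasi-likelihood test). The call was kept without any single library and lost when library totals replaced TMM factors (-0.16).

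**Figure D2:**
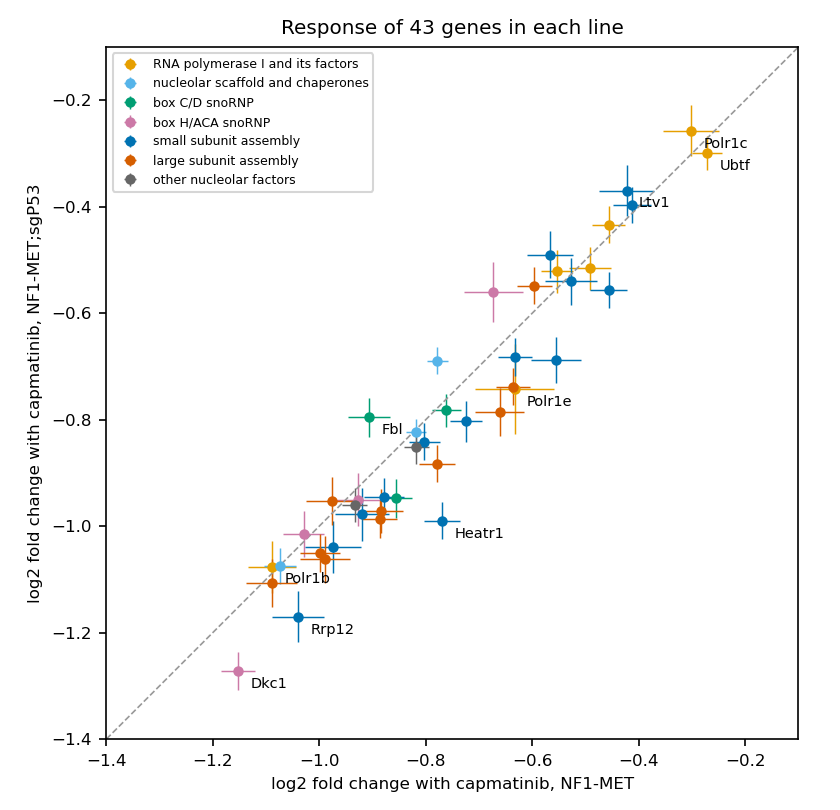
Log2 fold change with capmatinib in NF1-MET (horizontal) and NF1-MET;sgP53 (vertical) for the 43 tested genes, colored by role, with bars of 1 SE and a dashed line of equality. The points run from *Polr1c* and *Ubtf* at the upper right to *Dkc1* at the lower left, and *Heatr1* lies below the line.

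The third comparison asked what p53 loss did to the same transcripts. In vehicle, 2 of the 43 genes were higher in NF1-MET;sgP53 and 1 was lower (edgeR's quasi-likelihood test, Benjamini-Hochberg adjusted), where 10.9% of all genes were higher and 12.3% lower. *Heatr1* had a log2 fold change of 0.12 (SE 0.0315) and *Wdr12* of 0.11 (SE 0.0377), and *Nhp2* fell by 0.12 (SE 0.0406). In capmatinib 3 genes were higher and 1 was lower, where 5.94% of all genes were higher and 6.34% lower. *Fbl* had 0.17 (SE 0.0430), *Ltv1* 0.16 (SE 0.0508) and *Npm1* 0.08 (SE 0.0243), and *Nop56* fell by 0.11 (SE 0.0310). *Fbl* had 39.6 and 39.8 CPM in treated NF1-MET and 45.6 and 43.96 CPM in treated NF1-MET;sgP53. The share of the 43 genes that was called lay below that of all genes in both directions in vehicle and for lower genes in capmatinib, and a little above it for higher genes in capmatinib. With DESeq2's Wald test 0 genes were called in vehicle and 1 in capmatinib, with library totals in place of TMM factors edgeR called 0 in either, and with all 8 libraries in 1 model it called 8 higher and 0 lower in vehicle. Between the lines the 4 transcripts of ribosomal RNA overlap and small RNA had a median of -0.46 in vehicle, with 0 called, and of -1.03 in capmatinib, with 1 called lower, and without *Gm42418* and *AY036118* the counts for the 43 genes were the same as above.

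Most of the calls for p53 loss did not hold when 1 library was left out, many at a fold change of similar size. That of *Heatr1* in vehicle was kept whichever library was left out, but not with library totals (0.18) or DESeq2's Wald test (0.12). *Wdr12* (0.11 to 0.14) and *Nhp2* (-0.14 to -0.03) were no longer called without vehicle replicate 1 or 2 of NF1-MET or vehicle replicate 2 of NF1-MET;sgP53. In capmatinib *Ltv1* (0.15 to 0.19) lost its call without any of the 4 libraries, and *Nop56* (-0.13 to -0.08) without either NF1-MET library or replicate 1 of NF1-MET;sgP53, and with library totals its direction turned (0.0058). *Npm1* lost it without replicate 2 of NF1-MET (0.07) or replicate 1 of NF1-MET;sgP53 (0.06), and *Fbl* without the latter (0.15).

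The median over the 43 genes was 0.03 in vehicle and -0.02 in capmatinib, and the values ran from -0.12 to 0.12 and from -0.11 to 0.17. With library totals in place of TMM factors the median in capmatinib turned positive and that in vehicle rose, as the medians of all genes did. For the 40 genes that did not pass in vehicle, the log2 fold changes ran from -0.11 to 0.11 and their 95% intervals lay between -0.22 (*Nop10*) and 0.24 (*Polr1e*). For the 39 that did not pass in capmatinib, they ran from -0.11 to 0.11 with intervals between -0.20 (*Bysl*) and 0.22 (*Polr1c*). An unadjusted p under 0.05 was seen for 13 of the 43 genes in vehicle and 11 in capmatinib, where 33.6% and 23.9% of all genes reached it.

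**Figure D3:**
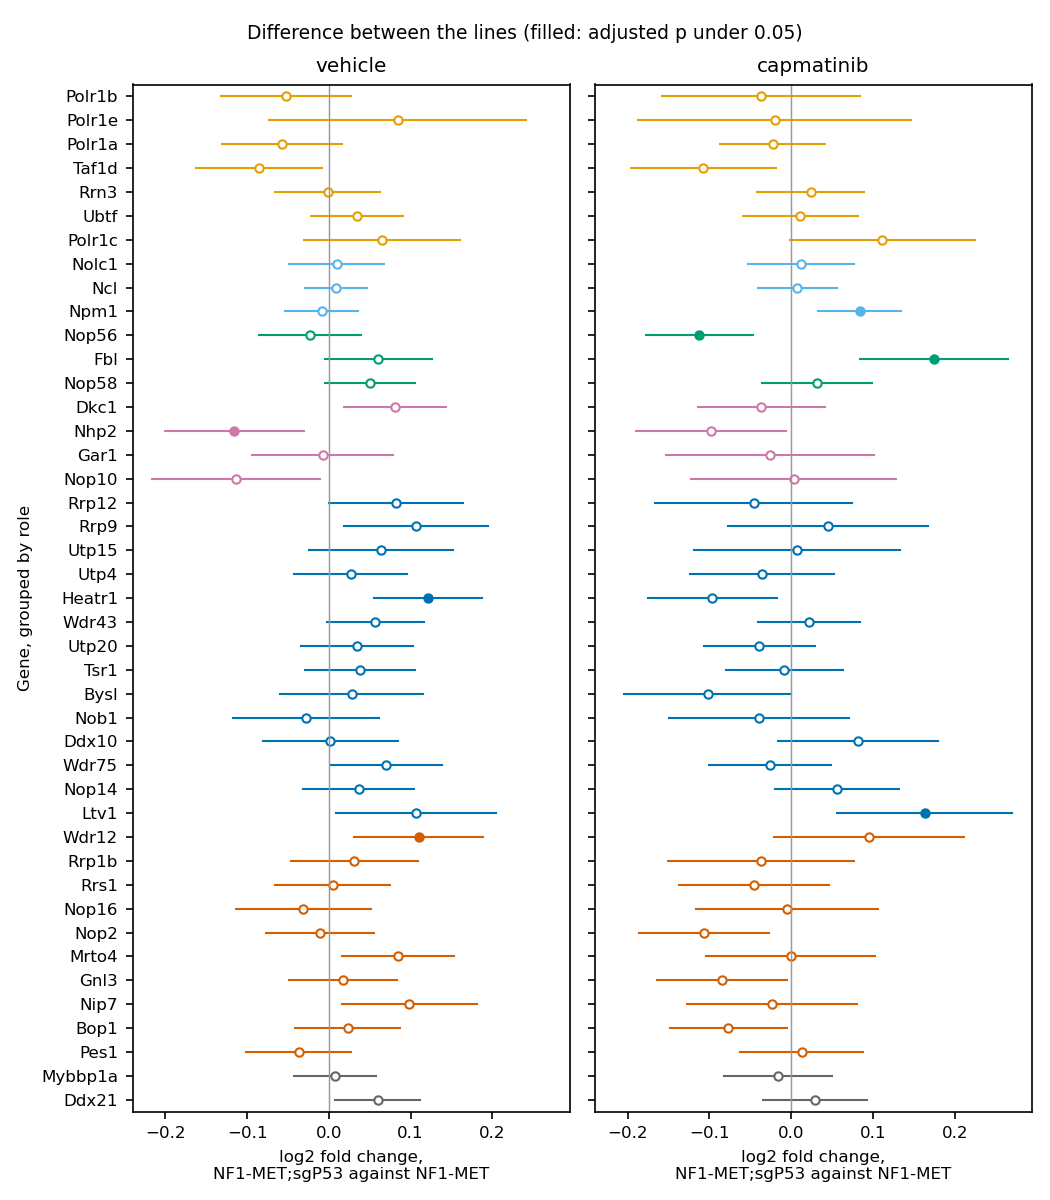
Log2 fold change of NF1-MET;sgP53 against NF1-MET in vehicle (left) and capmatinib (right) for the 43 genes, with 95% intervals. Filled symbols passed the adjusted threshold, 3 in vehicle and 4 in capmatinib, and all values lie between -0.12 and 0.17.

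Further genes of the same machinery, listed by role, were lower with capmatinib as well, though by less. Over both lines 38 of 41 further small subunit genes fell and 0 rose, with a median of -0.48, and the largest falls were those of *Wdr46* (-1.003) and *Rcl1* (-0.87). Of 46 further large subunit genes 42 fell, with a median of -0.59, led by *Rpf2* (-0.88) and *Rrp15* (-0.87), and 1 rose, the helicase *Ddx50* (0.22), a close relative of *Ddx21*. Among 30 further genes of snoRNPs and ribosomal RNA processing 28 fell and 0 rose, with a median of -0.59, led by the assembly ATPase *Ruvbl2* (-0.94) and the exosome subunit *Exosc2* (-0.93). Of 14 further genes of RNA polymerase I 10 fell, with a median of -0.27, and 1 rose. This was *Taf1b* (0.36), a part of the same promoter selectivity factor as *Taf1d*, which fell. The largest falls were in *Polr2h* (-0.81) and *Polr2e* (-0.67), subunits that all RNA polymerases share.

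RNA polymerase III makes transfer RNA and the 5S RNA. Of its 17 genes 12 fell and 2 rose, with a median of -0.27. *Polr3g* had 37.9 and 37.2 CPM in vehicle-treated NF1-MET cells, 10.8 and 10.1 CPM after capmatinib, 31.7 and 32.2 CPM in vehicle-treated NF1-MET;sgP53 cells, and 9.19 and 7.94 CPM after capmatinib, a larger fall (-1.87) than that of any of the 43 genes. *Maf1*, the repressor of this polymerase, rose by 0.11 and *Polr3d* by 0.09. Of 10 host transcripts of snoRNAs 8 fell and 2 rose, the latter being *Snhg12* (0.65) and *Gas5* (0.17), and *Snhg17* and *Snhg8* had -0.50 and -0.32.

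Ribosomal proteins, the substrates of this assembly line, changed less than its factors. Of 79 cytosolic ribosomal protein genes 72 fell, with a median of -0.21, and 1 rose, *Rpl10* (0.12). Among those at 10 CPM or more, the largest falls were in *Rpl13a* (-0.62) and in *Rpl27* (-0.48). Ribosomal protein genes have many near-identical copies in the genome, so single values of this family are uncertain where reads were split among them. Their summed level was 25718 to 27012 CPM in the vehicle libraries and 22458 to 22972 CPM in the capmatinib libraries.

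Markers of proliferation moved with the 43 genes. All 12 fell over both lines, with a median of -0.86, led by the replication helicase genes *Mcm7* (-1.25) and *Mcm3* (-1.09). Their summed level was 3325 to 3381 CPM in vehicle-treated NF1-MET cells, 1949 to 1974 CPM after capmatinib, 3446 to 3507 CPM in vehicle-treated NF1-MET;sgP53 cells, and 1953 to 1967 CPM after capmatinib. Their part in the fall of the ribosome biogenesis genes was not tested.

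**Figure D4:**
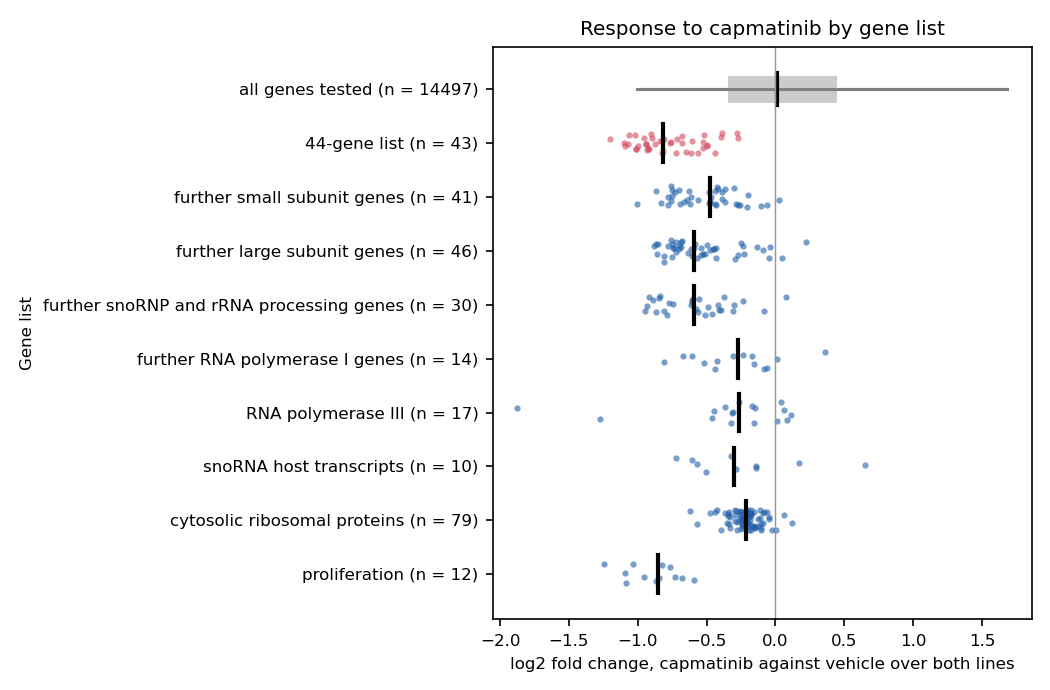
Log2 fold change with capmatinib over both lines by gene list. Points are genes, black bars are medians, and for all 14497 genes the grey box spans the middle 50% and the line the middle 90%. The median of the 43 genes (-0.81) lies near that of the proliferation markers (-0.86), the further assembly lists lie between -0.59 and -0.48, and ribosomal proteins are at -0.21.

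*Myc* itself (chromosome 15, 61985391 to 61990374) fell slightly over both lines (-0.08, adjusted p = 0.0367 in edgeR's quasi-likelihood test). It had 149 and 151 CPM in vehicle-treated NF1-MET cells, 146 and 150 CPM after capmatinib, 165 and 163 CPM in vehicle-treated NF1-MET;sgP53 cells, and 145 and 153 CPM after capmatinib. Treated and control libraries overlapped in NF1-MET, where its log2 fold change was -0.03 (SE 0.0284, adjusted p = 0.307 in edgeR's quasi-likelihood test), and were apart in NF1-MET;sgP53, where it fell by 0.14 (SE 0.0336, adjusted p = 0.00109 from the same test). In vehicle *Myc* was higher in NF1-MET;sgP53 by 0.11 (adjusted p = 0.00574 in edgeR's quasi-likelihood test). *Mycl* rose by 0.55 over both lines and *Mycn* had at most 0.0582 CPM and was not tested.

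MXD proteins take the place of MYC beside MAX at E-boxes. *Mxd4* had 15.9 and 14.4 CPM in vehicle-treated NF1-MET cells, 83.8 and 80.7 CPM after capmatinib, 11.6 and 12.6 CPM in vehicle-treated NF1-MET;sgP53 cells, and 79.3 and 80.2 CPM after capmatinib. Every treated library was far above every control, and the log2 fold change was 2.42 in the parental line (SE 0.0497) and 2.72 in NF1-MET;sgP53 (SE 0.0486). *Mxd1* had 5.51 and 5.54 CPM in vehicle-treated NF1-MET cells and 10.1 and 10.4 CPM after capmatinib, and 3.90 and 4.56 CPM in vehicle-treated NF1-MET;sgP53 cells and 9.79 and 9.07 CPM after capmatinib, a rise of 1.01 over both lines. *Mnt*, another partner of MAX, rose by 0.18, with a call in NF1-MET;sgP53 (0.27) and none in NF1-MET (0.06). *Max* (-0.07), *Mxd3* (-0.18), *Mxi1* (0.06) and *Mga* (0.04) did not pass the test over both lines, but each passed it within 1 line. In NF1-MET *Max* fell by 0.12 and *Mga* rose by 0.08 (adjusted p = 0.00356 and 0.0328 in edgeR's quasi-likelihood test), and in NF1-MET;sgP53 *Mxd3* fell by 0.33 and *Mxi1* rose by 0.18 (adjusted p = 0.00207 and 0.00255 from the same test). Of the 9 tested genes of this network 4 rose and 1, *Myc*, fell over both lines, shares near or below those of all genes (38.0% higher and 35.8% lower). The link between these transcripts and the fall of the 43 genes was not tested.

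**Figure D5:**
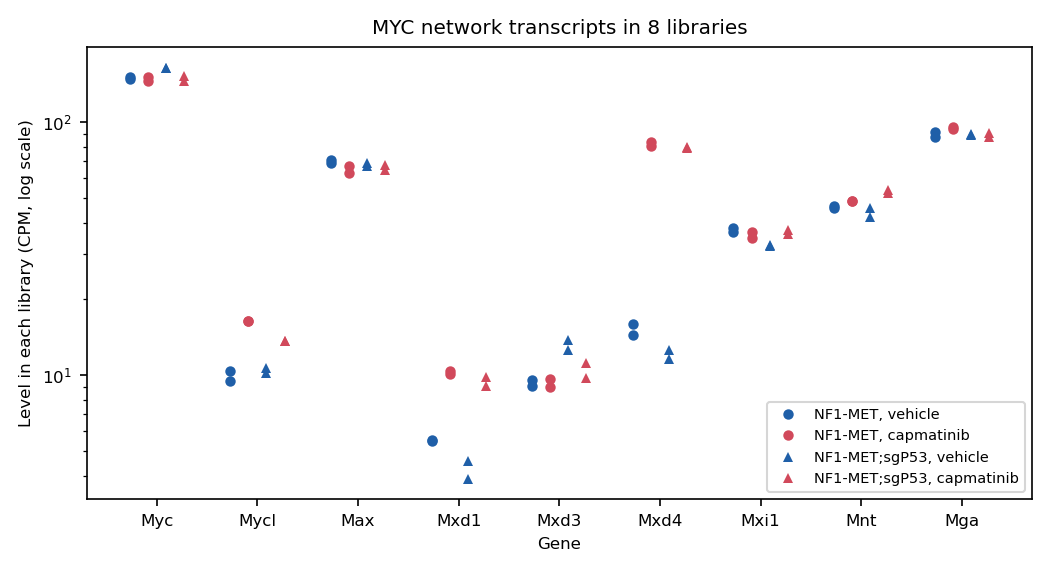
Levels of 9 transcripts of the MYC network in each library, in CPM on a log scale. Circles are NF1-MET, triangles NF1-MET;sgP53, blue vehicle and red capmatinib. *Mxd4* stands at 11.6 to 15.9 CPM in vehicle and 79.3 to 83.8 CPM in capmatinib, while *Myc* stays between 145 and 165 CPM.

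Genes that tie ribosome assembly to p53 were given for all 7 members of the list. *Rpl5* (-0.35) and *Rpl11* (-0.24), the ribosomal proteins of the 5S particle that bind MDM2, and *Heatr3* (-0.42), which helps to assemble that particle, fell with capmatinib over both lines. *Mdm2*, the ubiquitin ligase of p53 and itself a p53 target, had 106 and 104 CPM in vehicle-treated NF1-MET cells and 79.5 and 82.1 CPM after capmatinib, and 76.6 and 75.2 CPM in vehicle-treated NF1-MET;sgP53 cells and 73.0 and 71.8 CPM after capmatinib. It fell in NF1-MET, by 0.39 on the log2 scale, and its value in NF1-MET;sgP53 was -0.07 (adjusted p = 0.0719 in edgeR's quasi-likelihood test). *Trp53* fell by 0.55 over both lines, and *Mdm4* (0.07) and *Cdkn2a* (-0.02) did not pass the test there. Within NF1-MET *Mdm4* rose by 0.10 (adjusted p = 0.00732 in edgeR's quasi-likelihood test). *Cdkn2a* moved in opposite directions, with -0.34 in the parental line (adjusted p = 0.00139) and 0.27 in NF1-MET;sgP53 (adjusted p = 0.0290), both from the same edgeR test. Reads were counted for *Cdkn2a* although a deletion of it is described in the parental line, and which part of the gene they came from was not analysed here.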

How the data were processed

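The 44 genes and the further gene lists were chosen with earlier results of these data known. The authors sequenced poly(A) RNA from both ends, trimmed the reads (Trim Galore 0.4.2), mapped them to mm10 with STAR 2.5.2b and deposited raw counts per gene; FastQC 0.11.7 and bcl2fastq 1.9.0 are also named in the submitters' processing notes. The annotation release and the strand setting are not given in the sources used here. Totals had a median of 36.5 M counts.

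From these counts, genes that reached 10 counts in 2 or more libraries (14497) and had more than 0 counts in at least 2 libraries of a comparison (14481 to 14497) were tested with edgeR 4.0.16 (R 4.3.3) by its quasi-likelihood F-test, with TMM factors within a comparison, over all genes, with Benjamini-Hochberg adjustment and a threshold of 0.05. There were 6 comparisons: capmatinib against vehicle in each line and over both lines (line as covariate), p53-deficient against parental cells in vehicle and in capmatinib, and the interaction. The standard error is the log2 fold change divided by the square root of F. CPM values use TMM factors over all 8 libraries. Per the study's methods, cells were plated in a multi-well plate and treated in duplicate. Whether the duplicates were independent experiments is not stated, so p-values measure only the spread between these libraries. The procedure was checked on simulated data.

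Values in every library are given for the member of each role with the highest mean CPM and the one with the largest change, for both members of the role with 2 genes, and for members called in the interaction. Of the further lists, the 2 largest called changes in each direction at 10 CPM or more and all genes of the MYC network and the p53 surveillance list are named, and *Trp53* is given first as the targeted gene. The rule did not fix which of these are shown in every library: *Fbl*, *Polr3g*, *Myc*, *Mxd4*, *Mxd1* and *Mdm2*, and the ranges of *Gap43*, were chosen after their values were seen. Identifiers, positions and overlaps were taken from GENCODE release M21, which holds 50376 of the 50600 identifiers. Alternatives were DESeq2's size factors, library totals, leaving out *Gm42418* and *AY036118*, DESeq2 1.42.0, edgeR's bias-adjusted form, no filter, a filter of 10 counts in 7 libraries, the replicate block, all 8 libraries in 1 model and each library left out in turn.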

Additional observations from a re-analysis of the deposited data

Results flagged for a closer look

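The response to capmatinib differed between the lines, by edgeR's quasi-likelihood test of the interaction with Benjamini-Hochberg adjustment, for 12 of the genes named above. Values are the log2 fold change in NF1-MET;sgP53 minus that in NF1-MET.

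Among the 43 genes this was *Heatr1*, with -0.24 (adjusted p = 0.00105). Of the further lists, *Rpl13a* fell less in NF1-MET;sgP53, by 0.47 (adjusted p = 0.00335 from the same edgeR test), and kept its call in all 16 alternatives. These alternatives start from the same counts, so they do not address the near-identical copies of ribosomal protein genes named above. *Mcm3* fell more, by -0.21 (adjusted p = 0.00435 from the same edgeR test), a call lost with library totals (-0.13) and kept in the other 15. *Rcl1* also fell more, by -0.29 (adjusted p = 0.0311 from the same edgeR test), and kept its call in 5 of 16, being lost without any library but vehicle replicate 1 of NF1-MET;sgP53 (-0.31 to -0.24). Of the MYC network, the rise of *Mxd4* was larger in NF1-MET;sgP53 by 0.28 (adjusted p = 0.0187 from the same edgeR test), and without vehicle replicate 1 of NF1-MET (0.20), capmatinib replicate 2 of NF1-MET (0.25) or vehicle replicate 1 of NF1-MET;sgP53 (0.22), or with library totals (0.35), it was not called, 4 of 16 alternatives. *Mxi1* differed by 0.23 and *Mnt* by 0.19 (adjusted p = 0.0280 and 0.0379 from the same edgeR test), with their calls lost in 6 and 9 of 16 alternatives. Without vehicle replicate 1 of NF1-MET;sgP53, for instance, *Mxi1* had 0.22 and *Mnt* 0.14. *Mycl* rose less in NF1-MET;sgP53, by -0.33 (adjusted p = 0.0496 from the same edgeR test), and kept that call in 1 of 16 alternatives.

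Of the genes between ribosome assembly and p53, *Mdm2* differed by 0.30 (adjusted p = 4.45e-05 from the same edgeR test) and kept its call in all 16 alternatives. *Rpl5* fell less in NF1-MET;sgP53, by 0.17 (adjusted p = 0.0274 from the same edgeR test), and *Heatr3* fell more, by -0.19 (adjusted p = 0.0139 from the same edgeR test). Their calls were lost in 5 and 6 of 16 alternatives, both of them with library totals (0.25 and -0.11) and without capmatinib replicate 2 of NF1-MET (0.13 and -0.19). *Cdkn2a*, at 8.15 to 11.7 CPM, differed by 0.59 (adjusted p = 0.00997 from the same edgeR test) and was not called without vehicle replicate 1 of NF1-MET (0.55), capmatinib replicate 2 of NF1-MET (0.47) or vehicle replicate 2 of NF1-MET;sgP53 (0.39). As the study describes this gene as deleted in the parental line, what its counts measure is uncertain.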

How the results depend on the processing

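All 43 genes were lower with capmatinib, and 0 higher, in each line and over both under every alternative. Library totals in place of TMM factors moved the medians to -0.96 (NF1-MET), -0.95 (NF1-MET;sgP53) and -0.98 (both), where those of all genes were -0.18, -0.12 and -0.15. Leaving out 1 library gave a median of -0.85 to -0.79 in NF1-MET;sgP53, where a lone library was assumed to vary like the other groups.

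For p53 loss in vehicle, the count higher (2) became 0 with library totals and DESeq2's Wald test, 1 without a filter and 8 with all 8 libraries in 1 model, and the count lower (1) became 0 in each of these and in edgeR's bias-adjusted form. Without 1 library the counts were 2 to 5 higher and 0 to 1 lower, and the median was 0.029 to 0.057. For p53 loss in capmatinib, the count higher (3) became 0 with library totals and 1 with DESeq2's Wald test or without a filter, the count lower (1) became 0 in these 3 and 2 with all 8 libraries in 1 model, and without 1 library they were 0 to 2 and 0 to 1. Library totals moved the medians to 0.085 in vehicle and 0.10 in capmatinib, where those of all genes were 0.06 and 0.11, and turned *Nop56* in capmatinib to 0.0058.

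For the difference between the lines, library totals gave 0 lower and a median of 0.036. Leaving out *Gm42418* and *AY036118*, or the filter, gave 1 higher and medians of -0.0080 and -0.018. Without 1 library there were 0 to 1 higher and 1 to 2 lower. The cause of these changes was not tested.

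Replicate numbers did not pair the libraries, since same-numbered deviations correlated from -0.054 to 0.102. With a replicate block, 4 genes were higher with p53 loss in vehicle and *Ltv1* lost its call in capmatinib. Of 611 values of single genes under the alternatives, 513 kept their direction and call, 97 kept the direction only and 1 turned. Changes under about 0.05 on the log2 scale were near the standard errors and not resolved with 2 libraries a group. Some larger ones were not resolved either. Differences between the lines as large as -0.11 and 0.11, and an interaction of -0.15 (*Bysl*), did not pass the test.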
